A study of Mus musculus with 11 samples.

Results

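The genes described here are the 10 members of the spindle checkpoint and Aurora kinase machinery, Ttk, Bub1, Bub1b, Bub3, Mad2l1, Aurka, Aurkb, Aurkc, Incenp and Birc5, chosen by name from a table of 49585 genes. All 10 had 1 entry each and passed the filter on low values, and the smallest value behind any of them was 143 recovered reads. The embryos were of C57BL/6 mice and came either from round spermatid injection (ROSI), in which a haploid spermatid that has not yet become a sperm is put into the oocyte, or from intracytoplasmic sperm injection (ICSI), and their RNA was sequenced. There were 3 libraries of ROSI 2-cell embryos, 3 of ICSI 2-cell embryos, 2 of ROSI zygotes and 3 of ICSI zygotes. ROSI embryos were activated by 5 mM strontium chloride for 1 to 2 h in CZB medium without calcium before KSOM, while ICSI embryos are described in KSOM alone, so the paternal cell and the activation cannot be told apart. The labels do not say how many embryos a library holds or that replicates came from separate cultures, so p-values measure the spread between these libraries, which may be technical.

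In a dividing cell the spindle checkpoint holds back anaphase until every chromosome is attached to the spindle. Unattached kinetochores recruit the kinase TTK (also called MPS1), which brings in BUB1 and BUB3, and MAD2 and BUBR1 (the product of Bub1b) then block CDC20, the activator of the anaphase-promoting complex. Aurora A works at the spindle poles, while Aurora B or its germ-line relative Aurora C forms the chromosomal passenger complex with INCENP and survivin (the product of Birc5) and corrects wrong attachments. In mouse oocytes all these proteins act in meiosis, and their transcripts are stored for the first divisions of the embryo, when maternal RNA is degraded and the embryonic genome becomes active at the 2-cell stage.

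Values are in the deposited unit TPM, the share of a library's transcripts that a gene takes after division by its exon length. A library holds RNA of whole embryos, so fewer cells with a transcript and less of it per cell cannot be told apart. Depth recovered from the values lay between 8.48 M and 32.9 M reads in 2-cell libraries, lowest in ICSI 2-cell replicate 1, and between 30.4 M and 85.9 M in zygote libraries. Depth and stage therefore largely go together. Protein-coding genes took 44.6% to 51.2% of TPM in ROSI 2-cell embryos and 46.6% to 51.4% in ICSI 2-cell embryos, against 65.9% to 67.6% in ROSI zygotes and 71.2% to 71.5% in ICSI zygotes. Small nuclear and nucleolar RNA took 0.611% in ROSI zygote replicate 1 and 0.572% in ICSI zygote replicate 1, against 1.28% or more in the other libraries. The 10 oocyte and embryo markers, such as Gdf9 and Zp3, summed to 984 to 1231 TPM in ROSI 2-cell embryos, 1577 to 1602 TPM in ICSI 2-cell embryos, 6255 to 7016 TPM in ROSI zygotes and 7596 to 8685 TPM in ICSI zygotes, and the 10 cumulus cell markers summed to at most 7.99 TPM in any library.

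Sequence before the start site is shown for 3 members that represent what these promoters hold, Ttk and Aurkc, which differed most between the stages, and Bub3, which carries both motifs looked for. RefSeq windows (build GRCm38.p6) were matched for 8 members. Aurkb and Incenp are named only. The motifs were the cell cycle homology region (CHR, TTTGAA or TTCGAA), which recruits repressor and activator complexes to many genes of mitosis, and the CCAAT box (CCAAT), bound by NF-Y, each on either strand within the 250 bases before the start. Bases of a motif are in capitals, and the 3 sequences run 5′ to 3′ along the gene's strand.
Ttk: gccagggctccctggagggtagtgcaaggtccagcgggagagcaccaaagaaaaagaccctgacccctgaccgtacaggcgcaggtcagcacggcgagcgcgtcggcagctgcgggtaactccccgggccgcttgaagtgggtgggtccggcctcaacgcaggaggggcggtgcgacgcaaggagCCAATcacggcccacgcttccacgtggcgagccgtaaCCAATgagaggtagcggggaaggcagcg
Bub3: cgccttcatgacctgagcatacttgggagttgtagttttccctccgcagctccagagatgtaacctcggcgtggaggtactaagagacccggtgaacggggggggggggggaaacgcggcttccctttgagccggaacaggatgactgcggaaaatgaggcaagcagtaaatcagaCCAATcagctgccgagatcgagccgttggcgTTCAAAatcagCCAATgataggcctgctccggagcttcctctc
Aurkc: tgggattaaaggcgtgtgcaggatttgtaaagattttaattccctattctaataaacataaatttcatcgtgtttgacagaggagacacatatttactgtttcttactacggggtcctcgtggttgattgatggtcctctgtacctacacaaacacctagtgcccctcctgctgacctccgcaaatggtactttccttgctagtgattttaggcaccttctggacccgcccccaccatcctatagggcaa
The Ttk window lies at chr9:83834439-83834688 (plus strand), the Bub3 window at chr7:131560120-131560369 (plus strand) and the Aurkc window at chr7:6995135-6995384 (plus strand), before the RefSeq start. The Bub3 and Aurkc windows run past the gene starts of GENCODE M21, at 131560222 and 6995300, so part of each lies inside that gene model. No motif overlaps another in these 3 windows. CCAAT was found in 5 of the 8 members (Ttk, Bub1, Bub1b, Bub3 and Aurka) and CHR in 2 (Bub1b and Bub3), while 33.9% and 17.1% of all 32851 windows hold them and 6.02% hold both. The Ttk window has CCAAT beginning 65 and 28 bases before the start, and the Bub3 window shown has CHR 43 bases before it between CCAAT at 74 and 32. Bub3 has a second RefSeq start, whose window at chr7:131560244-131560493 is not shown. There the same CHR lies 167 bases before the start and CCAAT 198 and 156. These letters were not found in the windows of Aurkc, Mad2l1 and Birc5.

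Between the zygote and the 2-cell stage, 9 of the 10 genes fell and 1, Aurkb, rose, after ROSI and after ICSI alike, on the deposited scale (with scaling over protein-coding genes Incenp, and Bub1 after ROSI, turned in direction). Ttk and Aurkc had the largest falls of the 10. Ttk averaged 29.2 ± 3.60 TPM in ROSI 2-cell embryos against 248 ± 14.3 TPM in ROSI zygotes (SD, n = 3 and 2), and 49.2 ± 5.80 TPM against 266 ± 5.52 TPM after ICSI (SD, n = 3 each). Differences are given on the scale of log2(TPM + 1) with the standard error (SE) of a limma model over all 11 libraries, and a gene passed at a Benjamini-Hochberg adjusted p under 0.05 over all 21938 genes tested. All 10 genes passed in both comparisons, in which 67.9% of all genes passed after ROSI (35.6% higher, 32.3% lower) and 68.1% after ICSI (33.0% higher, 35.0% lower). The median difference of the 10 was -1.25 after ROSI and -1.32 after ICSI, beside 0.19 and 0.0036 for all genes. For each of the 10, the 2-cell libraries lay apart from the zygote libraries of the same injection, as did those of 76.1% of all genes after ROSI and 72.2% after ICSI.

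TPM is a share, and the share of protein-coding genes was smaller in 2-cell embryos than in zygotes. With TPM scaled over protein-coding genes alone, the median of all genes was 0.56 after ROSI and 0.39 after ICSI, and 9437 genes were higher and 5667 lower after ROSI, against 7811 and 7088 on the deposited scale. After ICSI 9080 were higher and 5826 lower with that scaling, against 7246 and 7687. Of the 10 genes, 7 were then lower and 1 higher after ROSI and 8 lower and 1 higher after ICSI. Incenp turned in direction, to 0.18 after ROSI and 0.10 after ICSI, and so did Bub1 after ROSI, to 0.026, and none of these values passed. Ttk was at -2.60 and -1.90, Aurkc at -2.14 and -2.08, and Aurkb at 1.81 and 1.49 after ROSI and ICSI.

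**Figure D1:**
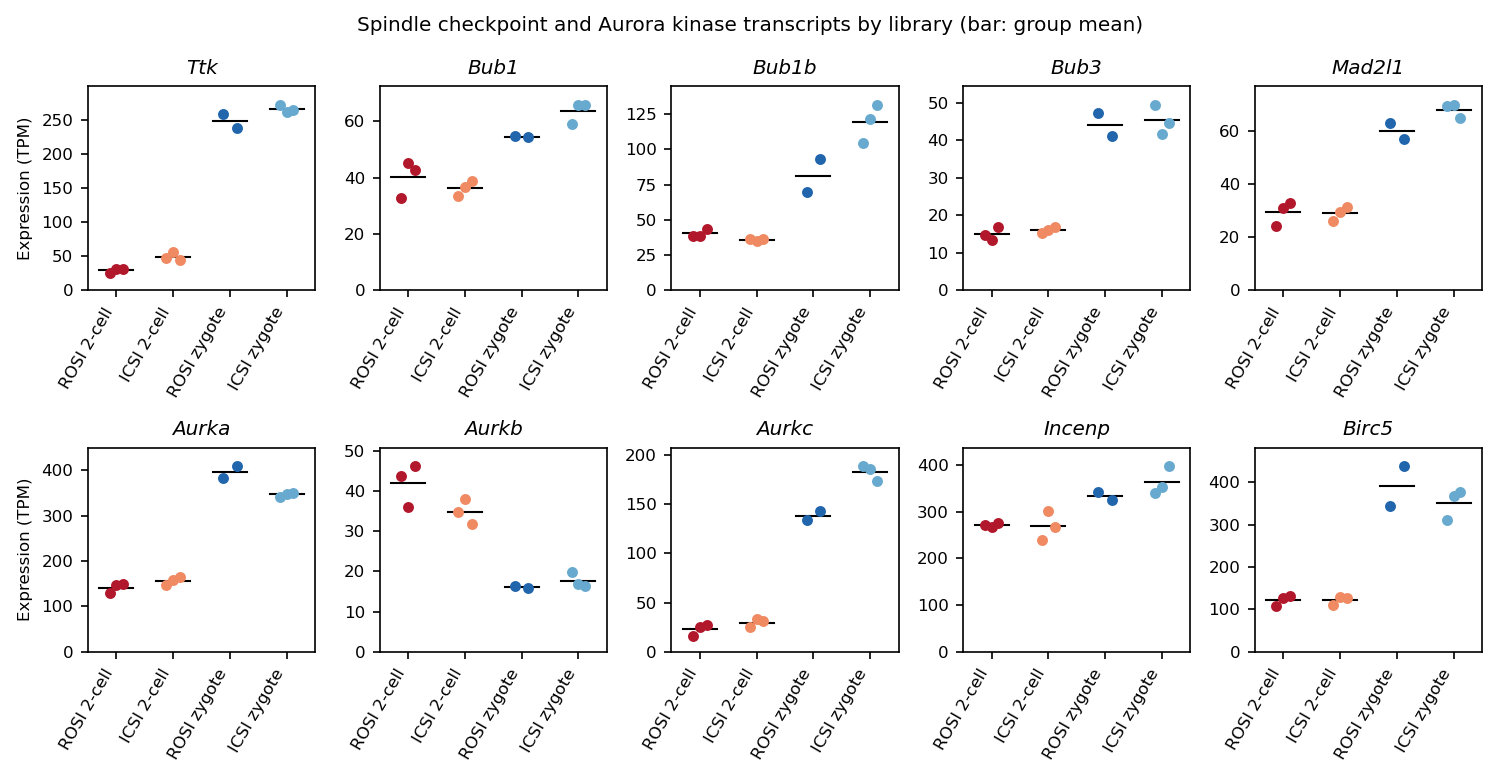
Expression in TPM of each of the 10 genes, 1 point per library and a bar at the group mean, with ROSI 2-cell, ICSI 2-cell, ROSI zygote and ICSI zygote libraries from left to right and each vertical axis starting at 0. Aurkb is higher in the 2-cell libraries and the other 9 genes have lower means at the 2-cell stage on this deposited scale (Incenp, and Bub1 after ROSI, not with scaling over protein-coding genes), and the 3 ROSI 2-cell libraries of Ttk lie below the 3 ICSI ones.

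Ttk, the kinase at the top of the checkpoint, lies at chr9:83834689-83872389, plus strand (build GRCm38 here and below). Ttk had 25.0, 30.7 and 31.7 TPM in ROSI 2-cell embryos and 47.5, 55.7 and 44.5 TPM in ICSI 2-cell embryos, against 258 and 238 TPM in ROSI zygotes and 272, 261 and 265 TPM in ICSI zygotes. The 2-cell libraries lay far below all zygote libraries, and the ROSI 2-cell libraries below the ICSI ones. The stage difference was -3.05 (SE 0.12, limma adjusted p = 7.41e-09) after ROSI and -2.42 (SE 0.11, limma adjusted p = 1.27e-08) after ICSI, an 8.51-fold and a 5.41-fold lower mean TPM. Ttk was the most abundant of the 5 checkpoint genes in both kinds of zygote, while in ROSI 2-cell embryos its libraries overlapped those of Mad2l1 and Aurkc, its neighbours in the order of levels. In ICSI 2-cell embryos Ttk kept the highest mean of the 5, at 49.2 TPM. Its libraries there did not overlap those of Bub1, next at 36.4 TPM.

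Both related genes Bub1b (chr2:118598211-118641591, plus strand) and Bub1 (chr2:127801122-127831865, minus strand) fell. Bub1b had 38.3, 38.8 and 43.7 TPM in ROSI 2-cell embryos and 36.3, 35.2 and 36.3 TPM in ICSI 2-cell embryos, against 69.7 and 93.0 TPM in ROSI zygotes and 104, 121 and 132 TPM in ICSI zygotes. Bub1b, which encodes the CDC20 inhibitor BUBR1, differed by -0.98 (SE 0.14, limma adjusted p = 8.14e-05) after ROSI and -1.69 (SE 0.12, limma adjusted p = 4.13e-07) after ICSI. Bub1 had 32.7, 45.4 and 42.6 TPM in ROSI 2-cell embryos and 33.5, 36.6 and 39.0 TPM in ICSI 2-cell embryos, against 54.7 and 54.4 TPM in ROSI zygotes and 59.0, 66.0 and 66.0 TPM in ICSI zygotes. Bub1, the kinase that marks the inner centromere for the passenger complex, differed by -0.44 (SE 0.14, limma adjusted p = 0.0147) after ROSI and -0.79 (SE 0.12, limma adjusted p = 0.000171) after ICSI. The TPM level of Bub1b was above that of Bub1 in every zygote library, whereas the ranges of both overlapped in each 2-cell group. The Bub1 difference after ROSI did not pass without ROSI zygote replicate 1 (adjusted p = 0.063), without ROSI zygote replicate 2 (0.0591) or with the 2 groups fitted alone (0.0603).

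Bub3 (chr7:131560222-131571895, plus strand), the WD-repeat partner that carries both BUB kinases to kinetochores, and Mad2l1 (chr6:66535390-66547220, plus strand), which encodes the CDC20-binding MAD2, had the lowest mean TPM of the 5 checkpoint genes in ICSI 2-cell embryos. Bub3 had 14.6, 13.5 and 16.8 TPM in ROSI 2-cell embryos and 15.2, 16.1 and 16.9 TPM in ICSI 2-cell embryos, against 47.2 and 41.1 TPM in ROSI zygotes and 49.5, 41.7 and 44.5 TPM in ICSI zygotes. The stage difference of Bub3 was -1.50 (SE 0.13) after ROSI and -1.44 (SE 0.11) after ICSI. Mad2l1 had 24.1, 31.0 and 32.6 TPM in ROSI 2-cell embryos and 26.0, 29.6 and 31.3 TPM in ICSI 2-cell embryos, against 62.9 and 56.7 TPM in ROSI zygotes and 69.1, 69.8 and 64.8 TPM in ICSI zygotes. Mad2l1 differed by -1.02 (SE 0.14) after ROSI and -1.20 (SE 0.12) after ICSI. For both genes each 2-cell library lay below each zygote library, and ROSI and ICSI libraries of the 2-cell stage overlapped. TPM divides by all annotated exons (7006 bases for Bub3 and 8390 for Mad2l1), which lowers the level of a gene with long rarely used exons against the other genes.

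Among the Aurora kinases, Aurka (chr2:172356190-172370535, minus strand) and Aurkc (chr7:6995300-7003091, plus strand) fell and Aurkb (chr11:69045647-69051664, plus strand) rose. Aurka had 129, 147 and 149 TPM in ROSI 2-cell embryos and 148, 158 and 165 TPM in ICSI 2-cell embryos, against 384 and 409 TPM in ROSI zygotes and 342, 348 and 350.2 TPM in ICSI zygotes. Aurka, the kinase of spindle poles, fell by 1.48 (SE 0.092, limma adjusted p = 1.34e-07) after ROSI and by 1.14 (SE 0.082, limma adjusted p = 3.80e-07) after ICSI on the log2 scale. Aurkc had 15.9, 25.3 and 27.0 TPM in ROSI 2-cell embryos and 24.8, 32.8 and 31.2 TPM in ICSI 2-cell embryos, against 134 and 142 TPM in ROSI zygotes and 189, 185 and 174 TPM in ICSI zygotes. Aurkc, the Aurora kinase of germ cells and early embryos, differed by -2.59 (SE 0.20, limma adjusted p = 6.83e-07) after ROSI and -2.59 (SE 0.18, limma adjusted p = 2.47e-07) after ICSI. Aurkb had 43.7, 36.1 and 46.2 TPM in ROSI 2-cell embryos and 34.9, 38.0 and 31.8 TPM in ICSI 2-cell embryos, against 16.5 and 15.9 TPM in ROSI zygotes and 19.8, 16.8 and 16.3 TPM in ICSI zygotes. Aurkb, the passenger kinase of somatic cells, was higher in every 2-cell library than in any zygote library, with a difference of 1.32 (SE 0.14, limma adjusted p = 7.01e-06) after ROSI and 0.95 (SE 0.12, limma adjusted p = 3.70e-05) after ICSI. Aurkb was the least abundant of the 10 genes in both kinds of zygote and stood at rank 4 in ROSI and rank 7 in ICSI 2-cell embryos, where its libraries overlapped those of Bub1b.

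Within the passenger complex, which takes either Aurora B or Aurora C, Aurkc made up 26.7, 41.2 and 36.9% of the summed TPM of Aurkb and Aurkc in ROSI 2-cell embryos and 41.6, 46.3 and 49.6% in ICSI 2-cell embryos, against 89.1 and 90.0% in ROSI zygotes and 90.5, 91.7 and 91.4% in ICSI zygotes. Aurkc held the larger part of the pair in all 5 zygote libraries. In the 2-cell libraries the listed level of Aurkb was above that of Aurkc, by as little as 31.8 against 31.2 TPM in ICSI 2-cell replicate 3. Sequence shared with pseudogenes leaves a doubt of unknown size on the Aurkc level. The order of Aurkb and Aurkc in 2-cell embryos is therefore uncertain after both injections, most of all after ICSI, where the gap was smallest. As a share of all 3 Aurora kinases, Aurkc averaged 12.1% ± 2.06 in 2-cell libraries (SD, n = 6) and 30.1% ± 4.59 in zygote libraries (SD, n = 5). This difference of -17.9 percentage points had a two-sided exact permutation p of 0.00433, the smallest that 462 splits can give. The test pooled ROSI and ICSI libraries and did not keep the injections apart. The share is built from the same 3 genes whose stage differences are given above, so it is no separate support. Libraries of 76.1% of all genes after ROSI and 72.2% after ICSI also lay apart between the stages. After ROSI the share was 8.42, 12.2 and 12.2% in 2-cell embryos against 25.1 and 25.1% in zygotes, and after ICSI it was 11.9, 14.4 and 13.7% in 2-cell embryos against 34.3, 33.7 and 32.1% in zygotes, so the groups of libraries did not overlap within either injection. Aurka held between 62.1% and 72.4% in every library, while the sum of the 3 kinases was 189 to 228 TPM in 2-cell libraries and 534 to 568 TPM in zygote libraries. These shares are ratios within a library and do not depend on its scaling, but they carry the doubt on the Aurkc level.

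**Figure D2:**
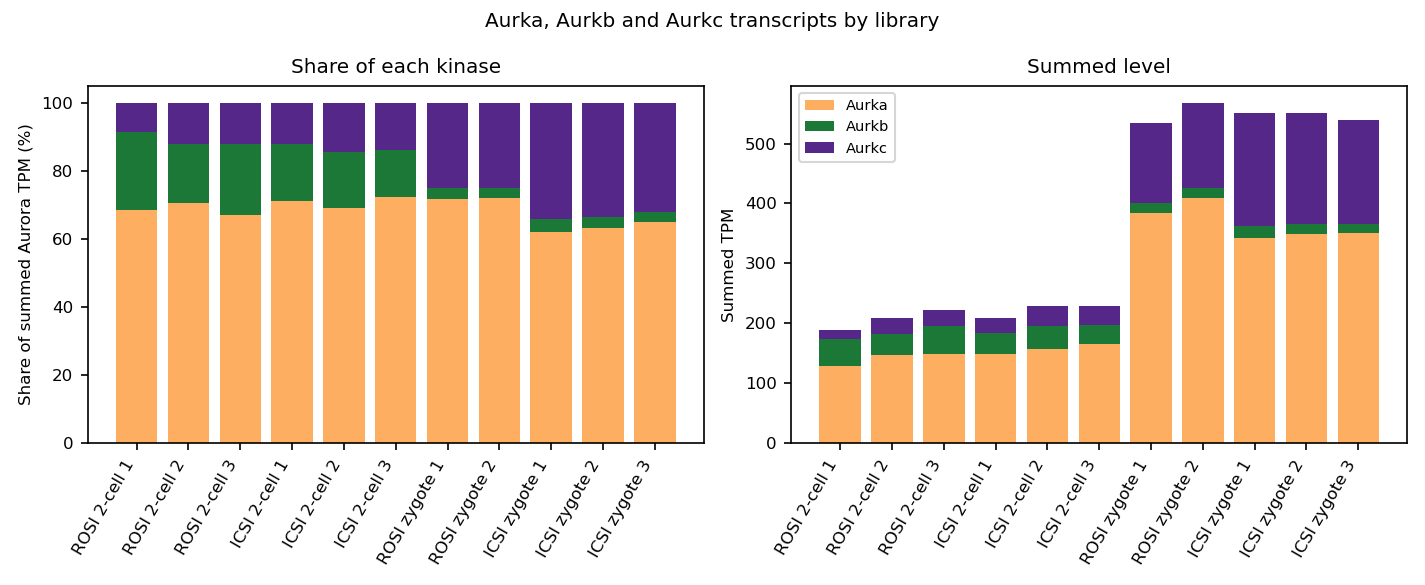
Share in percent (left) and summed TPM (right) of Aurka, Aurkb and Aurkc in each of the 11 libraries, 2-cell libraries left of zygote libraries and ROSI left of ICSI within a stage. The Aurkc segment is far larger than the Aurkb segment in all 5 zygote libraries, while in the 2-cell libraries both are closer in size, and their order in 2-cell embryos is uncertain because Aurkc shares sequence with pseudogenes.

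No exact window of 50 bases was shared, along the transcript strand, between transcripts of any 2 of the 10 genes in GENCODE M21. Whether reads with mismatches could be swapped among the Aurora kinases was not tested. However, 54.8% of the Aurkc windows also occur in transcripts of other genes, mostly the processed pseudogene Gm12463, and how the authors counted such reads is not given in the sources used here. For the other 9 genes the share was at most 2.09% (Birc5). Gm12463 itself had 0.219 to 1.20 TPM in the 2-cell libraries and 2.93 to 8.13 TPM in the zygote libraries. Among the other pseudogenes, Gm7789 shares 155 and Gm7151 shares 99 of the 1667 Aurkc windows. Gm7789 had 4.84 to 8.30 TPM in the 2-cell libraries and 3.84 to 6.01 TPM in the zygote libraries. Gm7151 had 2.63 to 14.1 TPM in the 2-cell libraries and 0.331 to 1.25 TPM in the zygote libraries. Gm7151 was highest in ICSI 2-cell replicate 1, where Aurkc had 24.8 TPM. It had 9.47 TPM in ROSI 2-cell replicate 2, where Aurkc had 25.3 TPM. The Aurkc level, and with it the stage differences and shares of Aurkc after both injections, is therefore uncertain by an amount that the table does not give. No exon of the 10 genes overlapped an exon of another annotated gene on either strand.

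Both partners of the passenger kinases, Birc5 (chr11:117849251-117855743, plus strand) and Incenp (chr19:9872296-9899551, minus strand), fell on the deposited scale, Incenp not with scaling over protein-coding genes. Birc5, which encodes survivin, the subunit that docks the complex on phosphorylated histone H3, was among the 3 most abundant of the 10 genes in every group. Birc5 had 109, 127 and 132 TPM in ROSI 2-cell embryos and 109.7, 130.3 and 126 TPM in ICSI 2-cell embryos, against 345 and 439 TPM in ROSI zygotes and 310.5, 368 and 378 TPM in ICSI zygotes. Its stage difference was -1.66 (SE 0.14, limma adjusted p = 1.53e-06) after ROSI and -1.52 (SE 0.13, limma adjusted p = 1.14e-06) after ICSI. Incenp had 270.3, 266 and 275 TPM in ROSI 2-cell embryos and 239.5, 301 and 267 TPM in ICSI 2-cell embryos, against 342 and 325 TPM in ROSI zygotes and 339, 353 and 397 TPM in ICSI zygotes. Incenp, the scaffold of the complex, differed by -0.30 (SE 0.11, limma adjusted p = 0.0308) after ROSI and -0.43 (SE 0.098, limma adjusted p = 0.00229) after ICSI, the smallest fall of the 9 on the deposited scale, and was the most abundant of the 10 in both 2-cell groups. After ROSI its adjusted p was 0.139 without ROSI zygote replicate 1, 0.0677 without ROSI zygote replicate 2, 0.0518 without ROSI 2-cell replicate 1 and 0.069 without ROSI 2-cell replicate 2.

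Between ROSI and ICSI 2-cell embryos, Ttk was the 1 gene of the 10 that passed, where 9.51% of all genes did (4.58% lower), so the count for the 10 is near that of the table as a whole. Ttk averaged 29.2 ± 3.60 TPM after ROSI and 49.2 ± 5.80 TPM after ICSI (SD, n = 3 each), a difference of -0.74 (SE 0.11, limma adjusted p = 0.00607), and the highest ROSI library, at 31.7 TPM, lay below the lowest ICSI library, at 44.5 TPM. Without any 1 library the adjusted p was at most 0.0221, and with these 6 libraries fitted alone it was 0.0644. Libraries of 2 of the 10 genes did not overlap, Ttk and Bub1b, beside 27.3% of all genes. Other marker genes moved with this comparison: 5 of the 10 oocyte and embryo markers were lower after ROSI, with sums of 984 to 1231 TPM after ROSI and 1577 to 1602 TPM after ICSI, none of them listed at 0. Of 8 markers of 2-cell activation such as Zscan4c, 6 were lower, with sums of 439.6 to 629.5 TPM after ROSI and 883 to 922 TPM after ICSI. Of 12 spermatid markers 10 were tested and 6 were higher, with sums of 40.9 to 58.6 TPM after ROSI and 10.1 to 15.2 TPM after ICSI, and Tnp2 and Smcp were listed at 0 in all ICSI 2-cell libraries. Their part in the Ttk difference was not tested.

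The other 9 genes did not pass between ROSI and ICSI 2-cell embryos. Bub1b averaged 40.3 ± 2.97 TPM after ROSI and 36.0 ± 0.647 TPM after ICSI (SD, n = 3 each), a difference of 0.16 with a 95% interval of -0.12 to 0.43. Aurkc differed by -0.39 (SE 0.18, limma adjusted p = 0.189) and Aurkb by 0.26 (SE 0.12, limma adjusted p = 0.204), with intervals of -0.78 to 0.0018 and -0.011 to 0.53. The Aurkc difference ranged over -0.53 to -0.16 with 1 library left out and was -0.16 (adjusted p = 0.437) without ROSI 2-cell replicate 1. With median-ratio scaling and all libraries Aurkc passed, at -0.46 (adjusted p = 0.0467). Aurka differed by -0.15 (SE 0.082), Bub1 by 0.13 (SE 0.12) and Bub3 by -0.099 (SE 0.11). Mad2l1 (0.0061), Incenp (0.013) and Birc5 (0.0065) had the smallest differences, with intervals that reached no further than -0.27 and 0.29.

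In zygotes none of the 10 genes passed between ROSI and ICSI, where 0.146% of all genes passed, and 1 of the 10, Bub1b, had an unadjusted p under 0.05. Of all 21938 genes, 1392 had one. Bub1b averaged 81.3 ± 16.5 TPM after ROSI and 119 ± 13.9 TPM after ICSI (SD, n = 2 and 3), a difference of -0.55 (SE 0.14, limma adjusted p = 0.219), and its adjusted p with limma array weights was 0.0369. With 1 library left out the difference ranged over -0.76 to -0.35, at -0.35 without ROSI zygote replicate 1, and it passed in none of these fits, whose lowest adjusted p was 0.0988. Aurkc averaged 138 ± 5.93 TPM after ROSI and 182 ± 7.89 TPM after ICSI, a difference of -0.40 (SE 0.20, limma adjusted p = 0.857). Aurka averaged 397 ± 18.1 TPM after ROSI and 347 ± 4.33 TPM after ICSI, a difference of 0.19 (SE 0.092, limma adjusted p = 0.83). Libraries of 6 of the 10 genes did not overlap (5 lower after ROSI and Aurka higher), beside 26.4% of all genes (19.4% lower, 6.97% higher). Between both replicate 1 libraries, which had little small nuclear RNA, the difference was -0.58 for Bub1b, -0.49 for Aurkc and 0.17 for Aurka, and among the other 3 zygote libraries it was -0.44, -0.33 and 0.23, with 1 ROSI library on each side and so no test. The remaining 7 genes differed by between -0.22 (Bub1) and 0.15 (Birc5).

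The change between the stages was itself compared between ROSI and ICSI, as the stage difference after ROSI minus that after ICSI. None of the 10 genes passed, beside 0.0182% of all genes. Without adjustment, p lay under 0.05 for 3 of the 10 and for 3303 of all 21938 genes. These 3 were Bub1b, at 0.71 (SE 0.19, limma adjusted p = 0.136), Ttk, at -0.63 (SE 0.17, limma adjusted p = 0.137), and Aurka, at -0.34 (SE 0.12, limma adjusted p = 0.238). Ttk passed with median-ratio scaling (-0.79, adjusted p = 0.0348), under which the median of all genes was -0.0092 against 0.10. On the deposited scale the gap of Ttk between ROSI and ICSI was therefore not shown to differ between 2-cell embryos and zygotes.

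**Figure D3:**
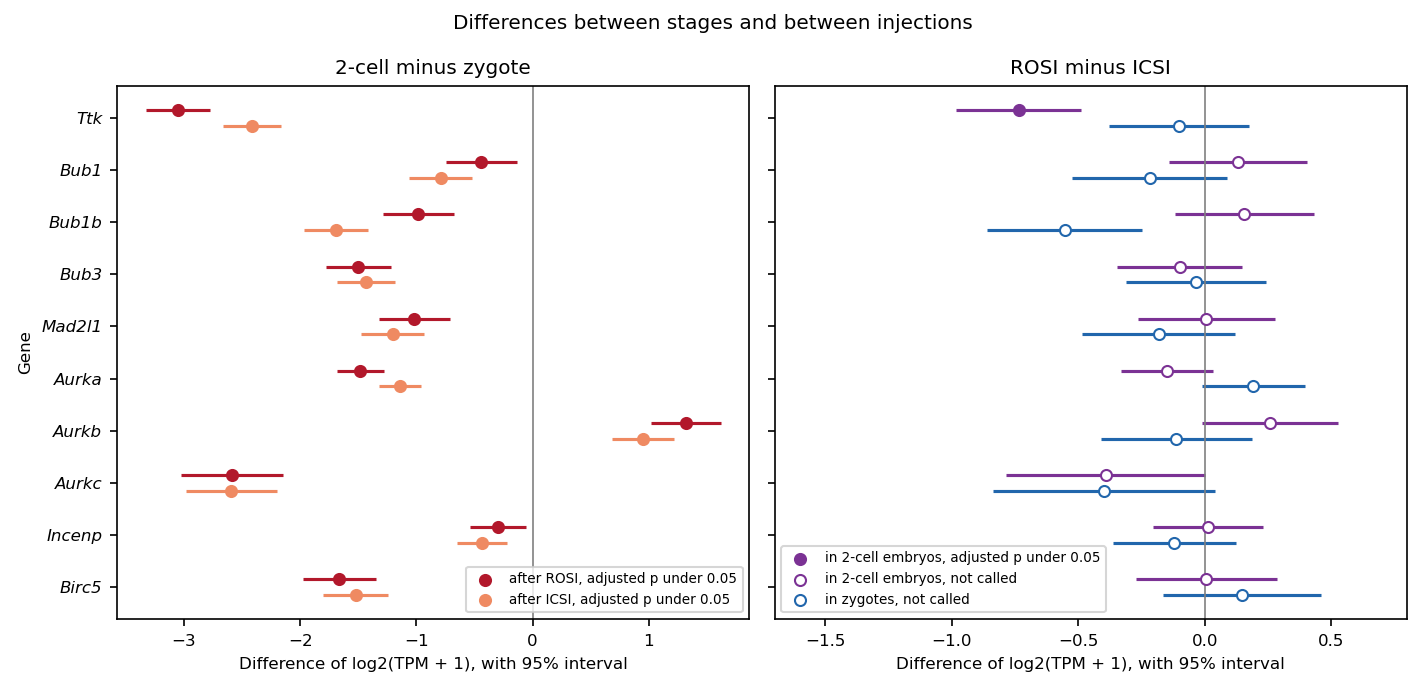
Difference of log2(TPM + 1) with its 95% interval for each of the 10 genes, as 2-cell minus zygote (left) and ROSI minus ICSI (right), with filled points past an adjusted p of 0.05. All stage differences are filled and those of Aurkb alone lie above 0 on the deposited scale (with scaling over protein-coding genes so do those of Incenp, and of Bub1 after ROSI), and Ttk in 2-cell embryos is the 1 filled point between ROSI and ICSI.

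A list of 11 further genes grouped with the checkpoint, not all of them shown to be part of it, went both ways between the stages. Of these 11, 4 rose (Mad2l1bp, Trip13, Mad2l2 and Tpr) and 4 fell (Zw10, Zwilch, Mad1l1 and Bod1) after ROSI, and the same 8 did so after ICSI. Mad2l1bp, which encodes p31comet, the adaptor that extracts MAD2 from its inhibitory complex, averaged 323 TPM in ROSI 2-cell embryos against 28.4 TPM in ROSI zygotes, and 351 against 35.8 TPM after ICSI, differences of 3.46 (SE 0.13) and 3.25 (SE 0.12). Trip13, the ATPase that works with it to silence the checkpoint, rose by 2.50 and 1.94. Zw10, of the complex that brings MAD1 and MAD2 to kinetochores, differed by -2.59 and -2.62. None of the 11 passed limma's test between ROSI and ICSI, where 3 had an unadjusted p under 0.05 in 2-cell embryos and 2 in zygotes, though with median-ratio scaling 2 were lower and with protein-coding scaling 2 higher in ROSI 2-cell embryos. Of all 21938 genes, 5857 had an unadjusted p under 0.05 in 2-cell embryos and 1392 in zygotes. Median-ratio scaling made 2023 of all genes lower in ROSI 2-cell embryos. The list median was 0.084 after ROSI and 0.0089 after ICSI, beside 0.19 and 0.0036 for all genes. With scaling over protein-coding genes 6 of the 11 were higher and 4 lower at the 2-cell stage after ROSI, and 7 higher and 3 lower after ICSI. Under median-ratio scaling 4 were higher and 5 lower after ROSI and 5 higher and 4 lower after ICSI.

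Of 22 further passenger complex genes and Aurora partners, 6 rose and 8 fell after ROSI and 5 rose and 11 fell after ICSI, with a median of -0.059 after ROSI and -0.20 after ICSI. Of all genes, 35.6% were higher and 32.3% lower after ROSI, and 33.0% higher and 35.0% lower after ICSI. With scaling over protein-coding genes the balance of these 22 turned, to 13 higher and 3 lower after ROSI and 11 higher and 4 lower after ICSI. Their medians were then 0.40 and 0.33. Under median-ratio scaling it did not turn, with 6 higher and 10 lower after ROSI and 8 higher and 11 lower after ICSI. Ajuba, a LIM protein that helps activate Aurora A, averaged 27.8 TPM in ROSI 2-cell embryos against 0.349 TPM in ROSI zygotes, and 15.5 against 0.431 TPM after ICSI. Ppp1cc, a catalytic subunit of the phosphatase that opposes Aurora B, rose by 2.39 and 2.37, while Kif23, a kinesin of the midzone, differed by -1.41 and -1.69. Gsg2, which encodes haspin, the kinase of the histone mark that survivin reads, fell to 138 TPM in ROSI 2-cell embryos, against 283 TPM in ROSI zygotes, and Plk1, the polo kinase that Aurora A activates, to 129 TPM in ICSI 2-cell embryos, against 239 TPM in ICSI zygotes. Both were also lower after the other injection. Gsg2 had 151 to 158 TPM in ICSI 2-cell embryos against 245 to 277 TPM in ICSI zygotes. Plk1 had 117 to 135 TPM in ROSI 2-cell embryos against 213 and 243 TPM in ROSI zygotes. Of 30 kinetochore genes, 9 rose and 16 fell after ROSI and 8 rose and 18 fell after ICSI, with a median of -0.46 after ROSI and -0.67 after ICSI. With scaling over protein-coding genes 13 were higher and 13 lower after ROSI and 13 higher and 12 lower after ICSI, with medians of -0.032 and -0.16. Under median-ratio scaling 9 were higher and 17 lower after ROSI and 10 higher and 16 lower after ICSI. Cenpt (2.19 and 2.38) and Cenpa, the histone of centromeres (1.58 and 1.39), rose, and Cenpq (-3.29 and -3.77) and Cenpo (-2.99 and -2.74) fell, after ROSI and ICSI in that order.

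The target of the checkpoint, the anaphase-promoting complex, was also followed. Of 31 genes of this complex with its activators and targets, 8 rose and 20 fell after ROSI and 7 rose and 21 fell after ICSI, with a median of -0.51 after ROSI and -0.68 after ICSI. With scaling over protein-coding genes 10 were higher and 12 lower after ROSI and 12 higher and 13 lower after ICSI. Under median-ratio scaling 9 were higher and 20 lower after ROSI and 9 higher and 18 lower after ICSI. Cdc20, the activator that MAD2 and BUBR1 bind, averaged 249.9 TPM in ICSI 2-cell embryos against 106 TPM in ICSI zygotes (difference 1.23) and differed by 1.35 after ROSI. Espl1, which encodes separase, the protease that opens cohesin, rose by 1.38 and 1.24. Its inhibitor securin, encoded by Pttg1, fell to 71.7 TPM in ROSI 2-cell embryos, against 583 TPM in ROSI zygotes, and to 90.3 TPM after ICSI, against 618 TPM. Anapc4, a scaffold subunit, differed by -1.93 after ICSI, Cdc23, a subunit of the same complex, by 1.81 after ROSI, and Ube2d1, a ubiquitin-conjugating enzyme, by -3.28 after ROSI. Each moved the same way after the other injection. Anapc4 had 12.5 to 16.1 TPM in ROSI 2-cell embryos against 45.9 and 48.3 TPM in ROSI zygotes. Cdc23 had 8.56 to 9.26 TPM in ICSI 2-cell embryos against 2.31 to 2.85 TPM in ICSI zygotes. For Ube2d1 these ranges were 1.37 to 3.26 and 17.7 to 19.3 TPM. Of 28 spindle motors and microtubule factors, 9 rose and 14 fell after ROSI and 8 rose and 15 fell after ICSI, with a median of -0.26 after ROSI and -0.39 after ICSI. With scaling over protein-coding genes 14 were higher and 9 lower after ROSI and 13 higher and 8 lower after ICSI. Under median-ratio scaling 9 were higher and 15 lower after ROSI and 10 higher and 14 lower after ICSI. Tacc3, which Aurora A phosphorylates on the spindle, fell to 104 TPM in ROSI 2-cell embryos, against 992 TPM in ROSI zygotes, and to 98.9 TPM after ICSI, against 861 TPM. Dlgap5, a spindle microtubule protein, differed by -3.01 and -3.04, while Hmmr, of the spindle poles (3.03 and 2.78) and the kinesin Kif18b (3.04 and 3.06) rose, the value after ROSI first. Over the 5 lists together, 36 of 122 genes were higher and 62 lower after ROSI and 32 higher and 69 lower after ICSI, where 35.6% of all genes were higher and 32.3% lower after ROSI and 33.0% higher and 35.0% lower after ICSI. With scaling over protein-coding genes this balance turned, with 56 higher and 41 lower after ROSI and 56 higher and 40 lower after ICSI. Over all genes that scaling gave 9437 higher and 5667 lower after ROSI, and 9080 higher and 5826 lower after ICSI. With median-ratio scaling the balance of the 5 lists did not turn. Of the 122 genes, 37 were then higher and 67 lower after ROSI, and 42 higher and 63 lower after ICSI.

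**Figure D4:**
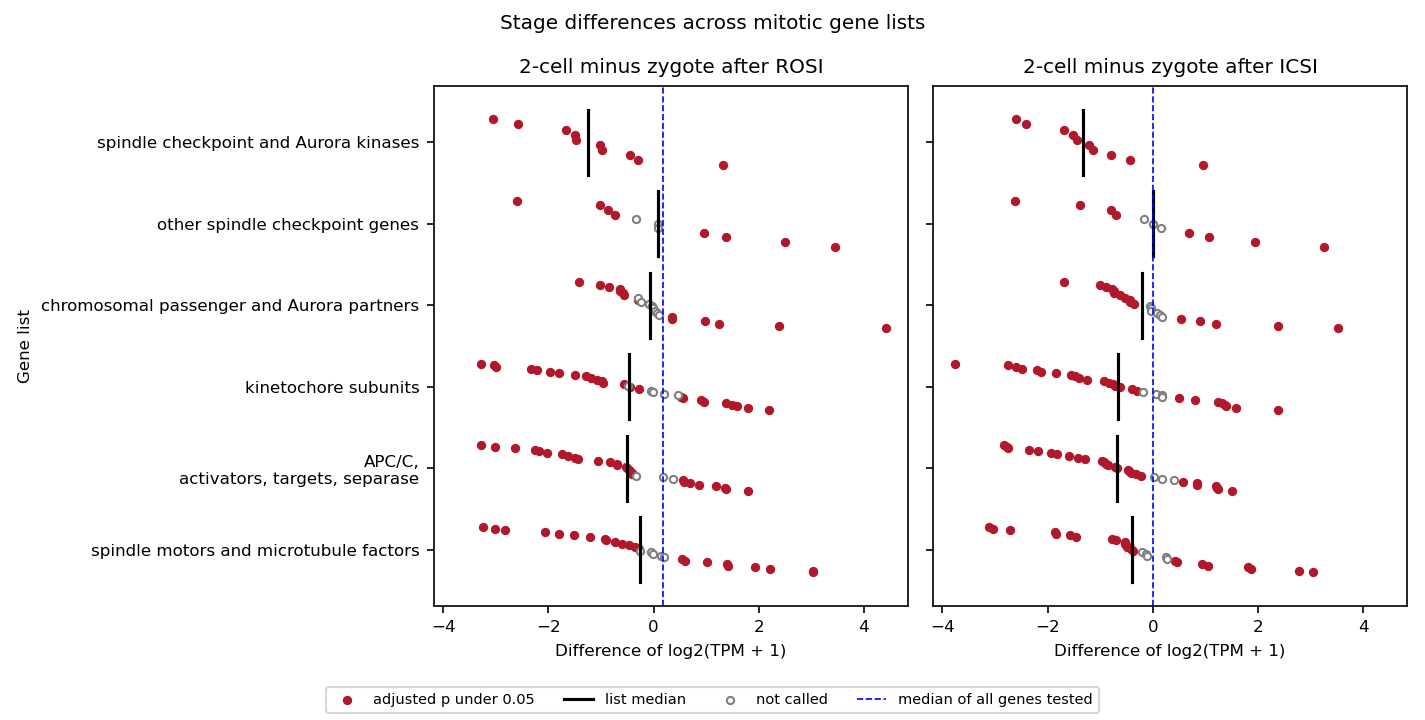
Difference of log2(TPM + 1), 2-cell minus zygote, for each tested gene of the 10 members and of 5 further lists of mitotic genes, after ROSI (left) and after ICSI (right), filled where the adjusted p was under 0.05, with black bars at list medians and a dashed line at the median of all genes tested. Within each of the 6 lists genes lie on both sides of 0, and the 10 members have 1 gene above it, Aurkb, on this deposited scale (with scaling over protein-coding genes Incenp, and Bub1 after ROSI, lie above it too).

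Between ROSI and ICSI 2-cell embryos, 5 of the 122 genes of these 5 lists were higher and 10 lower, beside 4.93% and 4.58% of all genes. Fbxo5, which encodes EMI1, an inhibitor of the anaphase-promoting complex, averaged 75.7 TPM after ROSI and 119.9 TPM after ICSI, a difference of -0.67 (SE 0.11, limma adjusted p = 0.00923). Ube2s, the enzyme that extends ubiquitin chains on that complex, differed by -0.51 (SE 0.079), and Knstrn, of the outer kinetochore and spindle, by -0.61 (SE 0.11). Ppp2r5e and Ppp2r5c, regulatory subunits of the phosphatase that BUBR1 recruits, differed by -0.39 and -0.34, Eml4 and Haus4, which bind microtubules and nucleate them, by -0.61 and -0.54, and Cenpo by -0.40. Higher after ROSI were Ajuba (0.81, SE 0.14, limma adjusted p = 0.00943), Tubgcp2 of the gamma-tubulin complex (0.74), Cenpi (0.54), Cdc16 (0.39) and Anapc7 (0.32). Without the 2 zygote libraries poor in small nuclear RNA, which take part in the spread of the model, 6 of these genes no longer passed, at adjusted p = 0.0647 for Cenpi, 0.0822 for Cdc16, 0.0647 for Anapc7, 0.0683 for Cenpo, 0.0549 for Ppp2r5e and 0.0647 for Ppp2r5c. Anapc7 did not pass with median-ratio scaling either (0.0831). Over the 5 lists, with median-ratio scaling 4 were higher and 20 lower, with protein-coding scaling 9 higher and 12 lower, and without those 2 zygote libraries 2 higher and 6 lower. Over all 21938 genes the balance also moved with median-ratio scaling, to 1197 higher and 2023 lower, against 1082 and 1005 on the deposited scale. In zygotes none of the 122 genes passed limma's test, and 13 had an unadjusted p under 0.05, as did 1392 of all 21938 genes.

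Profiles over the 11 libraries were compared by the Euclidean distance between centred log2(TPM + 1) values, over 13927 other protein-coding genes, for the 8 members whose group means spanned more than 1. The 11 libraries differ in stage and in depth, which every gene shares, so the distances describe likeness only. Nearest to Ttk were Creb3l4, Rab1b and Ncald (0.344 to 0.393), and nearest to Aurkc were Ncapg, Sycp2l and Atl1 (0.367 to 0.396). The one member that rose, Aurkb, was nearest to Esyt1, Xpo6 and Esam (0.250 to 0.338). Esam averaged 0.277 TPM in zygote and 1.71 TPM in 2-cell libraries, a low level at which adding 1 before the log shrinks differences. Mad2l1 lay closest to Nup160, Prpf3 and Dsn1 (0.157 to 0.207), of which Dsn1 encodes a kinetochore subunit. Aurka had Tubb4b, Prkg1 and Srpk1 (0.251 to 0.314) as neighbours and Birc5 had Meaf6, Paip2b and Ccne2 (0.254 to 0.293) as its own. For Bub1b they were Ghitm, Gtf2a2 and Snrpd1 (0.402 to 0.476), and for Bub3 Ptprb, Clvs2 and Gm10436 (0.282 to 0.296). Ptprb was also low, at 3.23 TPM in zygote and 0.444 TPM in 2-cell libraries on average.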

How the data were processed

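SMART-seq stranded libraries were made from 1 ng of total RNA, per the labels' protocols. The values are TPM deposited by the authors, 1 column per library, each with the same total. Per the submitters' processing notes, fastp, Bowtie2, STAR (2.7.4a) and featureCounts were used with mm10; their roles, the annotation and the strand setting are not given in the sources used here.

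From the table, log2(TPM + 1) of 21938 genes that reached 1 TPM in 2 or more libraries was fitted with limma 3.58.1 (R 4.3.3, eBayes with a trend) as 4 group means of all 11 libraries, and p-values were adjusted by Benjamini-Hochberg over all genes tested. The fit was tested on simulated data. Reads were recovered as TPM times the exon length of GENCODE M21 (the same genome build), scaled so that values became whole; 86.2% to 89.4% of the values under 1000 reads lay within 0.01 of a whole number. They show depth alone, and no count model was run. Shares were tested with scipy 1.17.1 in python 3.11.15. The members and all lists were chosen with earlier results of these data known, so their counts are descriptions. Named genes were the members, up to 2 per direction, list and comparison with the smallest p at 5 TPM or more in the higher group, and up to 3 nearest profiles; Mad2l2, Tpr, Mad1l1 and genes named only in a list of those that passed were named to complete small counts after their values were seen. The Aurkc relatives were also singled out after their values were seen. Alternatives were pseudocounts of 0.1 and 5, no filter and a filter of 5 TPM, median-ratio and protein-coding scaling, array weights, a replicate block, separate fits and each library left out.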

Additional observations from a re-analysis of the deposited data

How the results depend on the processing

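Of the values of the 10 genes recomputed under the alternatives, 989 of 1040 kept their direction and their side of the threshold, 37 turned in direction, 11 no longer passed and 3 passed newly. Unless given here or in the report, the cause of a change was not tested. The values that turned in direction were small, and none of them passed. Between ROSI and ICSI zygotes Bub3 was at 0.052 with median-ratio scaling, 0.060 with protein-coding scaling, 0.0055 with array weights and 0.0018 with a replicate block. Between 2-cell embryos Mad2l1 was at -0.061, Incenp at -0.055 and Birc5 at -0.062 with median-ratio scaling, and Incenp at -0.027 and Birc5 at -0.0031 with array weights. With protein-coding scaling the stage difference of Bub1 after ROSI was 0.026 and that of Incenp 0.18 after ROSI and 0.10 after ICSI. The difference of stage changes of Aurkc was -0.0062 with a pseudocount of 0.1, -0.15 with median-ratio scaling, -0.057 with protein-coding scaling, -0.041 with the block and -0.061 without the 2 zygote libraries poor in small nuclear RNA, and that of Incenp was -0.023 with median-ratio scaling. With 1 library left out, ranges that crossed 0 were -0.13 to 0.063 for Bub3 and -0.023 to 0.32 for Birc5 between zygotes, -0.076 to 0.13 for Mad2l1, -0.067 to 0.096 for Incenp and -0.067 to 0.090 for Birc5 between 2-cell embryos, and -0.16 to 0.033 for Bub3, -0.31 to 0.029 for Birc5 and -0.13 to 0.23 for Aurkc in the difference of stage changes. Beside the values in the report, Incenp after ROSI missed the threshold with no filter (adjusted p = 0.0595), and without the 2 zygote libraries poor in small nuclear RNA, an alternative chosen after seeing the data, Bub1 and Incenp missed it after ROSI (0.0683 and 0.134).

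Counts of genes that passed moved more. Between ROSI and ICSI zygotes, 32 of all genes passed, against 64 with a pseudocount of 0.1, 9 with 5, 87 with no filter, 52 with median-ratio scaling, 311 with array weights, 4 with the replicate block, 2 without the 2 libraries poor in small nuclear RNA, 0 with the groups fitted alone and 4 to 71 with 1 library left out (4 without ICSI zygote replicate 3, 71 without ROSI zygote replicate 2). Of the 10 genes, 1 (Bub1b) passed there with array weights. Between 2-cell embryos, 2087 of all genes passed, against 1366 with no filter, 3220 with median-ratio scaling, 85 with the groups fitted alone and 947 to 2197 with 1 library left out (947 without ROSI 2-cell replicate 2). There 2 of the 10 (Ttk and Aurkc) passed with median-ratio scaling and 0 with the groups fitted alone. For the difference of stage changes, 4 of all genes passed, against 94 with a pseudocount of 5, 13 with no filter, 71 with a filter of 5 TPM, 244 with median-ratio scaling, 97 with protein-coding scaling, 220 with array weights, 0 with the replicate block, 2 without the 2 libraries and 0 to 37 with 1 library left out. Of the 10, 1 (Ttk) passed there with median-ratio scaling.

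Replicate numbers were not used as pairs. Deviations from group means of same-numbered libraries correlated at 0.22 and 0.33 between ROSI and ICSI zygotes and at -0.043 to 0.057 for the other 13 pairs, and the block changed no call of the 10 genes. ROSI zygote replicate 2 and ICSI zygote replicate 3, with different numbers, correlated at 0.21. The 2 ROSI zygote libraries deviate from their mean by equal and opposite amounts, so their correlations are not independent. The difference in Aurkc share was -19.2 to -16.9 percentage points with 1 library left out. Groups of 2 or 3 libraries limit what can be told apart at this depth.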

Other observations

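Spermatocyte markers, of which 8 such as Sycp3 and Hormad1 were followed, summed to 401 to 420.4 TPM in ROSI 2-cell embryos, 375 to 386 TPM in ICSI 2-cell embryos, 145 to 182 TPM in ROSI zygotes and 171 to 175 TPM in ICSI zygotes. Oocytes also express several of these genes. The 12 spermatid markers summed to 86.8 to 166 TPM in ROSI zygotes and 24.9 to 31.2 TPM in ICSI zygotes, and 5 of the 10 tested were higher after ROSI. The 10 spindle checkpoint and Aurora kinase genes together summed to 753 TPM on average in ROSI 2-cell embryos and 779 TPM in ICSI 2-cell embryos, against 1764 TPM in ROSI zygotes and 1824 TPM in ICSI zygotes, so that Aurkb, the gene that rose, is a small part of the sum at either stage.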
